A study of Mus musculus with 4 samples.

Results

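The cytosolic ribosomal protein genes were taken by symbol, as Rpl or Rps followed by digits and the optional letters a, x or l, together with Rplp0, Rplp1 and Rplp2. The rule gave 81 genes listed for both cells and nuclei, of 27998 genes listed for cells and 48816 listed for nuclei. Of these members, 51 carry Rpl symbols, for the large (60S) subunit of the ribosome, and 30 carry Rps symbols, for the small (40S) subunit. All are annotated as protein-coding except Rpl6l, a processed pseudogene. They were measured at postnatal day 30 in the stria vascularis (SV) of mice of the inbred CBA/J strain, for which the labels give no treatment. The SV is the layered epithelium of the cochlear lateral wall that generates the endocochlear potential. Single-cell RNA-Seq (scRNA-Seq) gave 3 captures of cells, with tissue pooled from about 12 mice per suspension by the labels and dissociated with trypsin, and single-nucleus RNA-Seq (snRNA-Seq) gave 1 capture of nuclei, from about 10 mice and a detergent lysis. The study's own text gives other numbers of mice. Animals cannot be separated within a capture, and cells and nuclei came from different mice.

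Most ribosomal proteins bind ribosomal RNA at a fixed place in their subunit, and most are made in near equal numbers. Their mRNAs are among the most abundant of the cell. Most of these mRNAs are short and begin with a cytosine followed by a run of pyrimidines, the 5′ terminal oligopyrimidine (TOP) tract, through which their translation is regulated together. They act in the cytoplasm, where nearly all of the spliced mRNA sits. Ribosomal protein genes also have many processed pseudogenes, which are intronless copies that came from their mRNAs and can be nearly identical in sequence.

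The captures of cells held 392, 1358 and 1580 barcodes with 2811309, 8113494 and 8340882 unique molecular identifiers (UMIs, the count of captured molecules), and the capture of nuclei held 11057 barcodes with 22332501 UMIs. Barcodes kept after filters numbered 377, 1315, 1463 and 9785. Libraries shared 0 to 32 barcode sequences pairwise. The kept cells had a median mitochondrial share of 38.6% to 45.4% of UMIs per capture, against 8.30% in nuclei, and 1455 of the kept cells outside the named blood types had under 0.5% of their non-mitochondrial UMIs in Malat1, a long noncoding RNA held in the nucleus. Clusters were called marginal, intermediate, basal or spindle/root from their markers, and 1730 cells and 3824 nuclei stayed without a type, among them 3 large clusters of low-Malat1 cells. All 5 basal markers and all 7 marginal markers were detected in their own type in each capture of cells, against 6 of 7 spindle/root markers and 7 or 8 of 9 intermediate markers, and in nuclei none of these markers was at 0 in its own type.

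Members held 1147390 UMIs in the kept cells and 280434 UMIs in the kept nuclei. At least 100 UMIs in cells were found for 78 of the 81 members. The other 3 are paralogues, Rpl3l with 2 UMIs in cells and 10 in nuclei, Rpl39l with 0 and 1, and Rpl10l with 0 in both, which allows a share of the members' UMIs in nuclei of up to 0.00132% for Rpl10l by the exact binomial interval. Rpl3l is known from muscle and Rpl10l and Rpl39l from testis. These 3 genes entered no test.

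Molecules were counted at their 3′ ends, so that counts of genes are set side by side here without division by length. Rpl41, which encodes the very short basic peptide of the 60S subunit, had the most UMIs in cells, 65105 or 5.67% of the members' total. It was followed by Rps29 with 52539, Rps27 with 31971, Rpl37a with 29501 and Rpl39 with 29024. Rps29, Rps27 and Rpl37a are zinc-binding proteins, and Rpl39 lines the exit tunnel of the nascent peptide. These 5 genes held 18.1% of the members' UMIs in cells, and the 60S members together held 59.3%.

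The sequences around the transcription start of the most abundant members are shown because the TOP tract and the ETS-type sites of ribosomal protein promoters lie there. They run 5′ to 3′ on the strand of the gene, from 70 bases before the annotated start to 30 after it. The starts are as RefSeq gives them on GRCm38.p6. Capitals show each CTTTC, which is all pyrimidines, and each ETS-type core CTTCC, or GGAAG when read on the other strand. Rpl41 is at chr10:128549139-128549238 on the minus strand, Rps27 at chr3:90213619-90213718 on the minus strand, Rpl37a at chr1:72711190-72711289 on the plus strand and Rpl39 at chrX:37085193-37085292 on the minus strand. GENCODE puts the gene starts of Rpl41, Rpl37a and Rpl39 at 128549305, 72711290 and 37085402, outside these windows. Whether the windows of these genes hold their TOP tracts was not tested.
Rpl41: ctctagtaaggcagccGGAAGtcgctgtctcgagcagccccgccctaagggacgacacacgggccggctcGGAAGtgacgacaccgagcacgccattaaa
Rps27: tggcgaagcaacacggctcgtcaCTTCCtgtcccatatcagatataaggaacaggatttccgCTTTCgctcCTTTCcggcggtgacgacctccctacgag
Rpl37a: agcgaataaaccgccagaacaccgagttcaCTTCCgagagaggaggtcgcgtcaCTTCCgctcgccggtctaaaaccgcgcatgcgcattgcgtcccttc
Rpl39: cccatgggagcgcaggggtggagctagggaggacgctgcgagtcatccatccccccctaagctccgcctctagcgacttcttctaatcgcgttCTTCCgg
Rps27 carried CTTTC at 2 places around its start, while Rpl41 and Rpl37a carried CTTCC or its reverse complement GGAAG at 2 places each. A promoter was matched for 60 of the 81 members, and Rps29 was not among them. CTTTC on the gene's strand was present in 38.3% of these 60 windows and in 12.4% of all 27025 windows of the same length, whereas its reverse complement GAAAG was present in 11.7% and 11.5%. CTTCC was present in 43.3% of the members' windows against 19.7% of all, GGAAG in 31.7% against 21.2%, and the longer CGGAAG in either direction, which overlaps GGAAG, in 41.7% against 9.70%. These counts describe letters and not bound sites.

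The share of non-mitochondrial UMIs held by the members set apart the 4 SV cell types. It was 7.26%, 7.88% and 7.42% in marginal cells of captures 1, 2 and 3 (mean 7.52% ± 0.323, SD, n = 3) and 6.88%, 6.77% and 6.98% in intermediate cells (6.88% ± 0.101). It was 9.91%, 11.7% and 12.6% in basal cells (11.4% ± 1.38) and 14.8%, 12.8% and 12.9% in spindle/root cells (13.5% ± 1.12). In each capture, the members held a larger share in basal and spindle/root cells than in marginal and intermediate cells, without overlap between these pairs of types. The marginal cells here leave out a cluster of 487 mostly low-Malat1 cells with marginal markers, by a rule set after the clusters were seen. Members held 14.7%, 13.9% and 14.1% in that cluster, above basal cells in each capture. The place of marginal cells in this order therefore depends on that rule. Marginal cells lay above intermediate cells in each capture, and spindle/root cells above basal cells, although capture 3 separated this last pair by less than the SD of either type. As a median over barcodes, captures 1 and 2 kept the order of this pair. Capture 3 reversed it, with 13.6% in basal and 13.1% in spindle/root cells. The spindle/root sum of capture 1 came from 6 barcodes, with a median of 11.6%. No p-value was attached to these shares, since they are sums over the members.

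**Figure D1:**
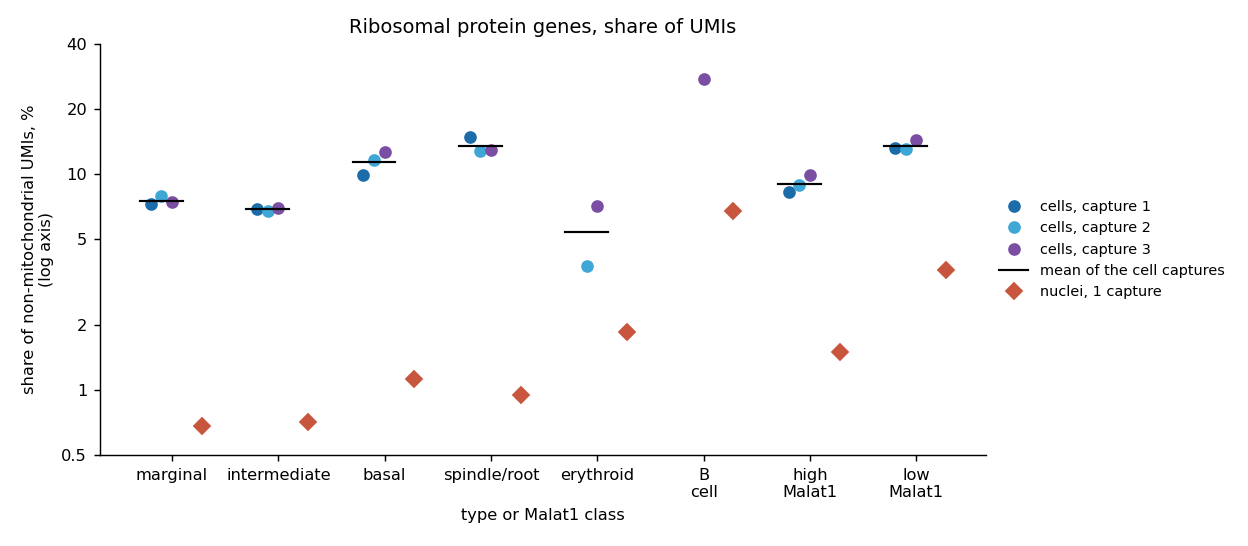
Share of non-mitochondrial UMIs held by the 81 ribosomal protein genes (y axis, %, log scale) by type and Malat1 class (x axis). Circles are captures of cells, black lines their means where there is more than 1, and diamonds the capture of nuclei. A cluster of 487 mostly low-Malat1 cells with marginal markers is left out of the marginal type. Basal and spindle/root cells lie between 9.91% and 14.8%, above marginal and intermediate cells between 6.77% and 7.88%, and the nuclei of these types lie between 0.680% and 1.13%.

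Basal cells fell into a pair of clusters with different shares, 14.5% ± 1.94 (SD, n = 3) in 64 cells and 8.79% ± 0.486 in 61 cells. The cluster with the larger share had a median mitochondrial share of 14.3% and the other of 33.0%. Mitochondrial shares also differed between the types, with means over captures of 27.7% in marginal, 31.6% in intermediate, 24.9% in basal and 13.6% in spindle/root cells. The part of these differences in the members' shares was not tested. Over barcodes within a type, the members' share had a Spearman correlation with the mitochondrial share of -0.557 in 125 basal cells and of -0.501 over the 45 spindle/root cells, but of 0.353 in 121 marginal cells and 0.270 in 998 intermediate cells, given as a description because both shares come from the same library. Markers of B cells, where the members held the largest share of any named type, were near 0 in the SV types. The 7 markers summed to between 0 and 12.4 UMIs per 1000000 non-mitochondrial UMIs (counts per 1000000, CPM) in marginal, intermediate, basal and spindle/root cells, with 3 to 7 of the markers at 0, against 8316 in B cells. Intermediate markers, which include abundant melanin synthesis genes, summed to 8794 to 13105 CPM in marginal, 11215 to 15725 in basal and 2058 to 5094 in spindle/root cells. Marginal markers summed to 3752 to 4577 CPM in spindle/root cells, with none of the 7 at 0, against 537 to 1195 in basal cells. Endothelial markers summed to 0 to 507 CPM and pericyte markers to 6.66 to 673 CPM in spindle/root cells, with the highest sums in capture 3 and the lowest in capture 2, against at most 28.8 and 37.1 CPM in basal cells. Fibrocyte markers summed to 333 to 1120 CPM in spindle/root cells and to 82.4 to 181 in basal cells. The part of these cell types in the shares was not tested.

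Each type was then set against the average of the other 3, gene by gene, with p-values from edgeR's quasi-likelihood test adjusted by Benjamini-Hochberg over 5926 genes, on UMIs summed per capture and type. Of 78 members, 69 passed an adjusted p of 0.05 as lower in marginal cells and 0 rose, where 13.6% of all genes fell. This direction turned, to 22 members higher and 1 lower, when a cluster of 487 low-Malat1 cells with marginal markers was counted as marginal, and 18 in place of 47 members then rose in basal cells. No share over all genes stands beside the counts with this cluster added. The rule that left this cluster without a type was set after the clusters were seen. In intermediate cells 74 fell and 0 rose, where 22.5% of all genes fell. In basal cells 47 rose and 0 fell, where 16.1% of all genes rose, and in spindle/root cells 74 rose and 0 fell, where 15.8% of all genes rose. At an unadjusted p under 0.05, 0 members were higher in marginal and 0 in intermediate cells, and 1, Rps27l, was lower in basal and 0 in spindle/root cells. Without capture 2 or capture 3, 27 or 26 members rose in basal cells, and 59 without capture 1. DESeq2 called 69, 73, 46 and 74 members in the same directions and 0 in the others. No share over all genes stands beside the counts by DESeq2 or those without a capture. The members that did not pass in intermediate cells were Rpl39, Rps27l, Rpl29 and Rpl19, and those in spindle/root cells Rpl39, Rps27l, Rpl36al and Rps28. The median log2 fold change of the members was -0.56, -0.56, 0.32 and 0.73 in the same order, against 0.00, -0.03, -0.03 and -0.01 over all genes tested. The 4 contrasts share their sums, so a fall in a pair of types and a rise in the others are not separate observations.

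**Figure D2:**
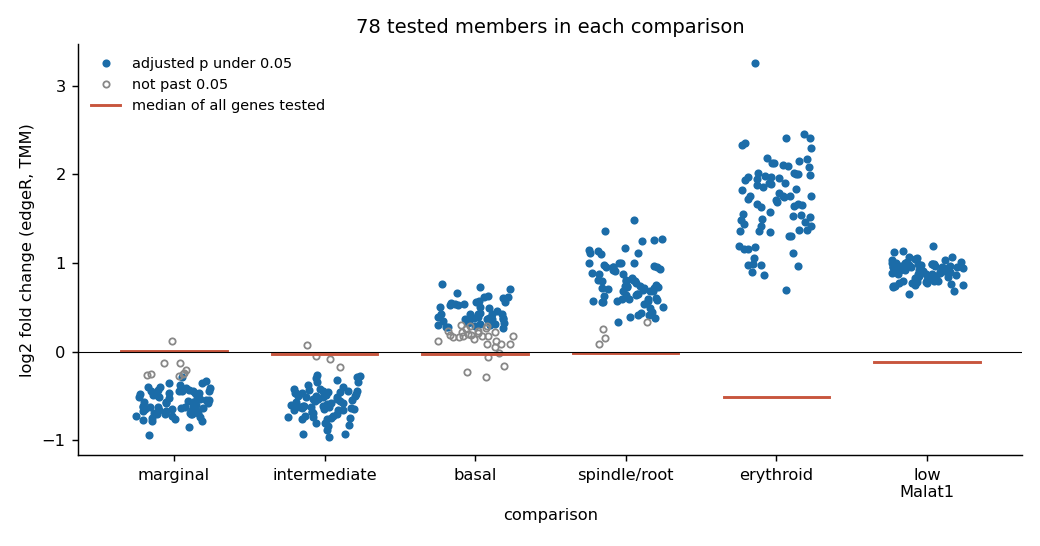
The log2 fold change (y axis) of the 78 tested members in each comparison (x axis): each SV type against the other 3, erythroid cells against the 4 SV types, and low-Malat1 against high-Malat1 cells. Filled points passed an adjusted p of 0.05, open points did not, and red bars are the median of all genes tested. Most members lie below the bars in marginal and intermediate cells and above them in basal cells, with exceptions among the open points, and all lie above them in the other 3 comparisons.

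The members Rplp0, Rplp1 and Rplp2 form the acidic stalk, which recruits the elongation factors to the 60S subunit. All 3 moved with the rest. Rplp0, the anchor of the stalk, was at 546, 587 and 468 CPM in marginal cells and 514, 518 and 503 in intermediate cells, against 804, 893 and 998 in basal and 1230, 1086 and 1415 in spindle/root cells. The marginal and intermediate levels overlapped each other and lay below all basal and spindle/root levels. The log2 fold change of Rplp0 was -0.73 (SE 0.12, adjusted p 6.6e-07) in marginal, -0.65 (SE 0.10, adjusted p 4.3e-07) in intermediate, 0.37 (SE 0.11, adjusted p 0.0054) in basal and 1.00 (SE 0.12, adjusted p 8.8e-11) in spindle/root cells by edgeR.

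Among the 60S members, Rpl3, a core protein near the peptidyl transferase centre, had the largest fall in marginal cells and, after Rpl6l, the largest rise in spindle/root cells. Its level was 372, 441 and 397 CPM in marginal cells, 385, 461 and 403 in intermediate cells, 602, 745 and 850 in basal cells, and reached 1698, 1119 and 1074 in spindle/root cells. Each group was separate from the next, apart from marginal and intermediate cells, which overlapped. The log2 fold change of Rpl3 was -0.94 (SE 0.13, adjusted p 4.4e-08) in marginal and 1.36 (SE 0.13, adjusted p 1.9e-13) in spindle/root cells. Rpl14, Rpl27a and Rpl12, which sits at the base of the stalk, also fell in marginal cells, with log2 fold changes of -0.85, -0.78 and -0.77. Rpl10, whose protein is among the last to join the 60S subunit, fell in intermediate cells (log2 fold change -0.93, SE 0.11, adjusted p 4.8e-11) and was at 861, 854 and 865 CPM there against 2781, 1972 and 2565 in spindle/root cells. Rpl10a had log2 fold changes of -0.89 in intermediate and 1.26 in spindle/root cells, both past the test. Rpl22 rose in basal cells by 0.67.

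Rpl6l, named for its likeness to Rpl6 and annotated as a processed pseudogene, had the largest change of any member in intermediate and in spindle/root cells. It was at 131, 78.3 and 91.3 CPM in intermediate cells, 126, 126 and 139 in marginal cells, 194, 129 and 173 in basal cells, against 529, 320 and 265 in spindle/root cells. Spindle/root levels were above all others, with capture 1 well above the other captures. Its log2 fold change was -0.96 (SE 0.13, adjusted p 2.7e-09) in intermediate cells and 1.49 (SE 0.17, adjusted p 9.0e-11) in spindle/root cells.

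Among the 40S members, Rps27 and Rps28 had their highest mean level in basal cells. Rps27 was at 3647, 4298 and 4807 CPM in basal cells, against 3937, 3852 and 3798 in spindle/root cells, which overlapped, and at 1873, 2234 and 1952 in marginal and 1913, 2002 and 2128 in intermediate cells. Rps28 was at 2979, 3086 and 3813 in basal cells, above 2830, 2299 and 2194 in spindle/root cells in every capture. Rps27 rose in basal cells by 0.77 (SE 0.095, adjusted p 7.4e-10) and Rps28 by 0.73 (SE 0.098, adjusted p 9.3e-09). In spindle/root cells Rps4x, the X-linked form of Rps4, rose by 1.25. Rps4x and Rps9, which helps to set decoding accuracy, fell in intermediate cells with log2 fold changes of -0.83 and -0.93, and Rps24 fell in marginal cells with -0.79.

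**Figure D3:**
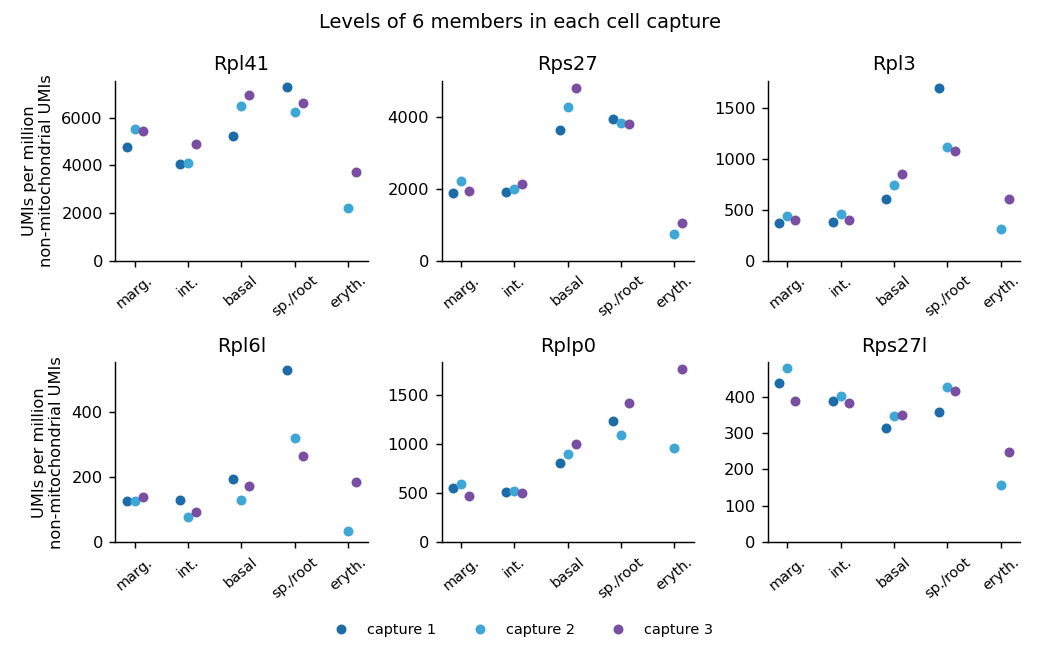
Levels of 6 members (y axis, CPM, from 0) in marginal (marg.), intermediate (int.), basal, spindle/root (sp./root) and erythroid (eryth.) cells (x axis). Each point is 1 capture of cells. Rpl3 and Rpl6l are highest in spindle/root cells, Rps27 is similar in basal and spindle/root cells, and Rps27l does not follow the other members.

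The order of the types was shared by nearly all members. Basal and spindle/root cells were the 2 highest types in all 3 captures for 74 of 78 members, with Rpl7a, Rpl29, Rpl39 and Rps27l as the exceptions. The orders given here were counted over members only, so no share over all genes stands beside them. They also leave out the low-Malat1 cluster with marginal markers. Spindle/root cells were the highest in all 3 for 51 members, and basal cells for 1, Rps28. Intermediate cells were the lowest in all 3 captures for 36 members and marginal cells for 5, Rpl3, Rpl19, Rplp2, Rps21 and Rps28. When each type's mean share of the members' UMIs was taken gene by gene, the highest type exceeded the lowest by a median ratio of 1.27, and the ratio was under 1.5 for 67 of 78 members and over 2 for 0. Members of the 60S subunit held 57.1% to 60.8% of the members' UMIs in each type and capture of cells.

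Rps27l departed most from this common order. It encodes a paralogue of Rps27 known as a target of p53, and lies at chr9:66946086-66949516 on the plus strand of mm10. It was at 438, 478 and 390 CPM in marginal cells, 387, 402 and 383 in intermediate cells, 313, 347 and 349 in basal cells, against 357, 427 and 416 in spindle/root cells. It passed the adjusted p in none of the 4 types, with values from 0.077 to 0.72 by edgeR, and its share of the members' UMIs was 1.95 times as large in the highest type as in the lowest. Scaled to the members alone, Rps27l was higher than the other members by 0.64 (SE 0.14, adjusted p 0.00011) in marginal and 0.61 in intermediate cells on the log2 scale, and its log2 fold change against them was -0.65 (SE 0.14, adjusted p 0.00022) in basal and -0.60 in spindle/root cells. On that scaling, 7 members rose and 2, Rpl14 and Rpl3, fell in marginal cells, 7 and 8 in intermediate, 3, with Rps27 and Rps28 among them, and 8 in basal, and 18 and 8 in spindle/root cells. No share over all genes stands beside the counts on that scaling. Rpl6l, Rpl3, Rpl29 and Rpl7a had the next largest ratios between types, from 1.66 to 1.86. Rpl36al, the other paralogue with enough UMIs, fell in intermediate cells (log2 fold change -0.32, SE 0.10, adjusted p 0.010) and did not pass in the other 3 types.

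Other genes of the translation machinery were counted in the same fits. Of 7 ribosomal proteins whose symbols lie outside the rule, 5 fell in marginal cells, with Rpl22l1, Rps3a1, Rpsa and Fau among them, and these 4 and Gnb2l1 fell in intermediate cells. In basal cells 2 rose, Rpl22l1 and Rps3a1, and in spindle/root cells 6. Of 7 elongation factors tested, Eef1a1, Eef1b2, Eef1d and Eef1g fell in marginal cells, and Eef1d, part of the complex that reloads Eef1a1 with GTP, had the largest change (log2 fold change -0.91, SE 0.16, adjusted p 7.1e-06). These 4 and Eef2, the translocase, fell in intermediate cells and rose in spindle/root cells, and all of them but Eef1g rose in basal cells. Of 12 further mRNAs with a TOP tract, some of which are also elongation or initiation factors, 9 fell in marginal and 10 in intermediate cells, and 10 rose in basal and 10 in spindle/root cells, with Pabpc1, the poly(A)-binding protein, at -1.05 in marginal and 1.26 in spindle/root cells. Of 28 initiation factors, 4 fell in marginal cells, Eif2s2, Eif3f, Eif4g2 and Pabpc1, and 11 in intermediate cells, while 5 rose in basal cells, Eif1, Eif3a, Eif4b, Eif4g2 and Pabpc1, and 11 in spindle/root cells. The counts in marginal and basal cells are near the background of 13.6% and 16.1% of all genes.

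Mitochondrial ribosomal proteins, which are encoded in the nucleus and serve the separate ribosome of the mitochondrion, were counted beside the members. Of 57 tested, 8 rose and 3 fell in marginal cells, 9 rose and 1 fell in intermediate cells, 1 rose and 16 fell in basal cells, and 5 rose and 2 fell in spindle/root cells. Of all 5926 genes, 1027 rose in marginal and 1205 in intermediate cells, both larger shares than among these 57 genes, and 809 fell in basal cells, a smaller share. The median log2 fold change of the mitochondrial ribosomal proteins was 0.10, 0.06, -0.49 and 0.30. Mrps6 was the gene that fell in intermediate cells and the gene that rose in basal cells, and it moved as the cytosolic members did in all 4 types, with log2 fold changes of -0.64, -0.42, 0.43 and 0.63. The other genes that fell in marginal cells were Mrpl21 and Mrpl52. In spindle/root cells Mrpl11, Mrpl30, Mrpl44, Mrps6 and Mrps33 rose, and Mrpl55 and Mrps36 fell.

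Ribosome biogenesis factors, which process ribosomal RNA and assemble the subunits in the nucleolus, were mostly too low to test, with 9 of 20 tested. Ncl and Npm1, the abundant nucleolar proteins nucleolin and nucleophosmin, fell in marginal and intermediate cells and rose in basal cells, by 0.72 and 0.89 on the log2 scale, and Ncl was also the gene that rose in spindle/root cells. Polr1a, the large subunit of RNA polymerase I, and Nop10 rose in marginal cells and fell in intermediate cells. Rrs1 and Bop1 rose in intermediate cells, whereas Rrs1 fell and Ubtf rose in basal cells. Nuclear long noncoding RNAs also differed between types. Malat1, Neat1 and Kcnq1ot1 all fell in marginal and in spindle/root cells and all rose in basal cells, and Malat1 rose in intermediate cells with a log2 fold change of 1.17. Their part in the shares of the members was not tested.

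Erythroid cells were found only in captures 2 and 3, with 14 and 88 barcodes, and haemoglobin held 789483 and 708278 CPM. Members held 3.74% of non-mitochondrial UMIs in capture 2 and 7.09% in capture 3 (mean 5.42% ± 2.37, SD, n = 2). Against non-mitochondrial UMIs without haemoglobin, the mean share was 21.0%. In CPM, 76 of 78 members were lower in erythroid cells than in each SV type in capture 2, all but Rplp0 and Rps2, and 29 in capture 3, and 1, Rplp0, was higher than in each SV type in capture 3. Haemoglobin is part of the CPM total, which lowers the CPM of all other genes. How many of all genes were lower than in each SV type was not counted. The share also differed within the erythroid cells. A cluster of 52 cells in capture 3 held 10.4%, with a median over all 55 of its barcodes of 2.57%, while another of 47 cells held 0.654% ± 0.201 (SD, n = 2). The median over all erythroid barcodes was 0.879% as a mean of the captures.

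Against the mean of the 4 SV types, all 78 members rose in erythroid cells by edgeR with TMM scaling, over 6759 genes of which 20.5% rose, but 4, Rplp0, Rpl15, Rps2 and Rps18, rose and 31 fell without TMM, and 1, Rplp0, rose and 58 fell when the library size was the non-mitochondrial UMIs. With haemoglobin also taken out of the library size, 77 rose and 0 fell. No share over all genes stands beside the erythroid counts under scalings other than TMM. The members' median log2 fold change was 1.74 with TMM and -0.26 without it, while that of all genes was -0.51 and -2.54, so that the members stood 2.25 and 2.28 above all genes. This distance hardly depends on the scaling, which shifts all genes by about the same amount. Rplp0 had the largest rise, 3.26 (SE 0.22, adjusted p 6.4e-18), with 956 and 1765 CPM in erythroid cells of captures 2 and 3. In CPM, the level in capture 2 lay below the 1086 of spindle/root cells of that capture and above the 893 of basal cells, while that in capture 3 lay above the 1415 of spindle/root cells. Rps18, Rpl15, Rps2 and Rpl6l followed with 2.45, 2.42, 2.41 and 2.35. Without capture 3, these fell to 1.36, 1.46, 1.6 and 0.14, and Rpl6l did not pass (adjusted p 0.97), and without capture 2 they were 3.10, 2.93, 2.93 and 2.85. Rplp0 also exceeded the other members on the members' own scale by 1.68 (SE 0.18, adjusted p 5.7e-10), whereas Rps27 had a log2 fold change of -0.86 against them. Of 29 initiation factors, 22 rose and 2 fell with TMM, and of 60 mitochondrial ribosomal proteins, 32 rose and 1 fell. Without capture 3, which holds most of the erythroid cells, 42 members rose, with no share over all genes beside this count.

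B cells were too few for a test, with 28 in capture 3 and 3 in each other capture. Members held 27.5% of their non-mitochondrial UMIs in capture 3 (exact 95% interval 27.2% to 27.7%, counting error only), and 77 of 78 members, all but Rps21, were higher than in each SV type of that capture. The share of all genes higher than in each SV type was not counted. Rps27 reached 8902 CPM and Rplp0 4555 there. B cell nuclei held 6.76% (6.68% to 6.84%), likewise the largest share of any named type of nuclei.

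Barcodes of cells with under 0.5% of non-mitochondrial UMIs in Malat1 were compared with the other cells of their capture, with named blood cells left out. They are called cells after their captures, and whether each holds a whole cell was not tested. Low-Malat1 barcodes were shallower, with medians of 1522, 1388.5 and 978 non-mitochondrial UMIs in captures 1, 2 and 3. High-Malat1 barcodes had medians of 6485, 4626.5 and 3832.5. Members held 13.3%, 13.1% and 14.3% of non-mitochondrial UMIs in low-Malat1 cells (13.5% ± 0.689, n = 3) and 8.24%, 8.91% and 9.90% in high-Malat1 cells (9.02% ± 0.834). The ranges did not overlap, and the ratio was 1.61, 1.46 and 1.45 (1.51 ± 0.0881). All 78 members were higher in low-Malat1 cells in each capture of cells, with a median ratio of 1.63, 1.48 and 1.43. How many of all genes were higher in each capture was not counted. Low-Malat1 cells had a mean mitochondrial median of 56.7% against 30.7%, and of all UMIs, mitochondrial ones included, the members' share was no larger, with a ratio of 0.975. Leaving Malat1 itself out of the total gave a ratio of 1.41. The mix of cells also differed between the classes. Intermediate markers summed to 23834, 17070 and 13968 CPM in low-Malat1 cells and 31056, 25383 and 23473 in high-Malat1 cells, and fibrocyte markers to 138, 866 and 1604 against 121, 528 and 248. In capture 3, neutrophil markers summed to 2927 CPM in low-Malat1 and 3556 in high-Malat1 cells, and clusters without a name, 1 of them with neutrophil markers, stayed in both classes. The part of these cells in the ratio was not tested.

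By edgeR with TMM, all 78 members rose in low-Malat1 cells, over 9467 genes of which 22.5% rose, but 1, Rpl26, rose and 4, with Rps27, Rpl27a and Rpl10a among them, fell without TMM, where mitochondrial UMIs count in the library size, and 78 rose with the library size of non-mitochondrial UMIs. No share over all genes stands beside the low-Malat1 counts under scalings other than TMM. The members' median log2 fold change was 0.92, -0.04 and 0.60 under these 3 scalings, and it stood 1.03, 1.04 and 1.03 above the median of all genes. A scaling shifts all genes by about the same amount, so these near-equal distances add no support across scalings. Rpl26 had the largest rise, 1.19 (SE 0.068, adjusted p 1.8e-19), from 1074, 1135 and 1253 CPM in high-Malat1 cells to 2136, 2019 and 2156 in low-Malat1 cells. Rps26, Rps20 and Rps6, the target of the S6 kinases, had log2 fold changes of 1.14, 1.07 and 1.07. With TMM, mitochondrial ribosomal proteins rose too, 45 of 74 with 1 lower, and their counts under other scalings are not given here. Within the intermediate clusters alone, where low-Malat1 cells were few, the ratio was 1.39 and 0 members passed the adjusted p by edgeR, with 4 higher at an unadjusted p under 0.05.

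A cluster of 487 mostly low-Malat1 cells carried marginal markers and stayed without a type. Members held 14.7%, 13.9% and 14.1% of its non-mitochondrial UMIs, 1.90 times their share in marginal cells, and its median mitochondrial share was 51.1%. When it was counted as marginal, the 1 member that fell in marginal cells was Rpl27a. The fall of the members in marginal cells was thus called for the clusters in which most cells held Malat1. Across cells binned by Malat1, the members' share of the summed UMIs was 13.3%, 13.9% and 16.0% in the 3 bins under 0.5%, 13.7% in the 66 cells from 0.5% to 1%, and 9.75%, 9.55% and 8.23% in the 3 bins above. As a median over barcodes it was 13.3%, 13.5% and 13.8% in the 3 bins under 0.5%, but 8.81% from 0.5% to 1% and 8.11%, 8.08% and 6.82% above.

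**Figure D4:**
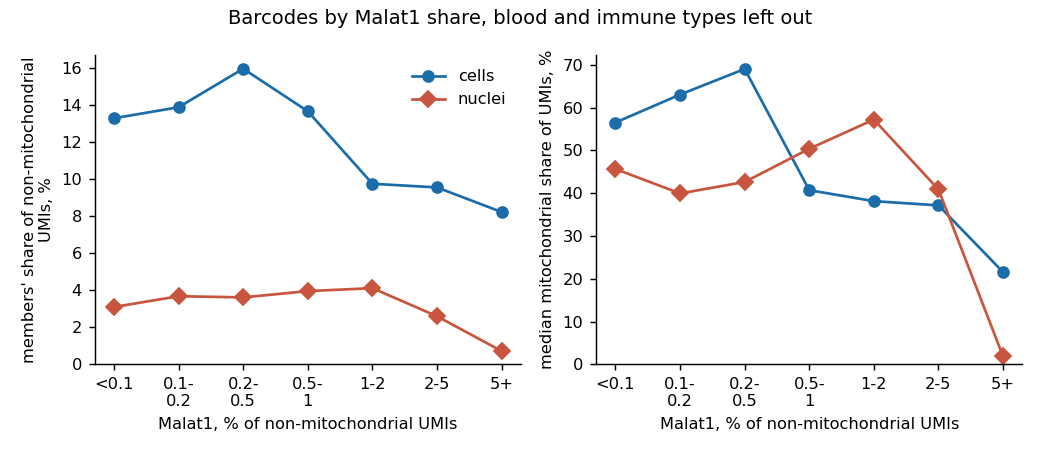
Left, share of non-mitochondrial UMIs held by the members (y axis, %) in barcodes binned by the share of Malat1 (x axis, % of non-mitochondrial UMIs), for cells and nuclei outside the named blood and immune types. Clusters without a name that carried neutrophil or macrophage markers were kept. Right, the median mitochondrial share of UMIs in the same bins. In nuclei the share falls from 4.11% to 2.60% to 0.714% over the last 3 bins while the mitochondrial share falls from 57.2% to 1.83%.

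Nuclei held far less of the members than cells of the same type. The share of non-mitochondrial UMIs was 0.680% in marginal nuclei (exact 95% interval 0.672% to 0.688%), 0.711% in intermediate (0.701% to 0.722%), 1.13% in basal (1.11% to 1.15%) and 0.948% in spindle/root nuclei (0.916% to 0.981%). With 1 capture of nuclei there is no test, and the intervals cover counting error only. Taken over genes in both lists, the cells' mean share was 10.8, 9.46, 9.82 and 13.8 times that of nuclei. At least 2-fold lower levels in nuclei were found for 78 of 78 members in each type, where 54.4%, 32.4%, 48.6% and 68.1% of all genes with at least 100 UMIs in the cells were as much lower. This limit was set on cells alone, which favours genes that are lower in nuclei, among members and other genes alike. It left out Rpl3l, with 2 UMIs in cells and 10 in nuclei, Rpl39l with 0 and 1, and Rpl10l with 0 in both. The median log2 difference of the members was -3.64, -3.48, -3.59 and -4.20, against -1.11, -0.50, -0.96 and -1.56 over all those genes. Taken whole, basal and spindle/root nuclei held more than marginal and intermediate nuclei, with basal nuclei the highest for 42 of 78 members and spindle/root nuclei for 23. The type with the highest level was not counted over all genes. Clusters within these types differed. Basal nuclei split into 655 with 1.19% and 44 with 0.467%, the latter below marginal and intermediate nuclei. Their median mitochondrial shares were 7.67% and 1.44%. Spindle/root nuclei split into 102 with 1.00% and 110 with 0.905%, at mitochondrial medians of 8.60% and 1.85%. As a median over barcodes, these 110 held 0.511%, against 0.578% in marginal and 0.483% in intermediate nuclei. Basal and spindle/root nuclei also differed in other ways. Their median mitochondrial shares were larger, 5.64% and 4.76% against 1.85% in marginal and 1.73% in intermediate nuclei. Over barcodes the members' share had a Spearman correlation with the mitochondrial share of 0.755 in 699 basal and 0.577 in 212 spindle/root nuclei, from the same library. Erythroid markers summed to 18326 CPM in basal nuclei, against 6653 in marginal, 5487 in intermediate and 3856 in spindle/root nuclei. Intermediate markers summed to 6772 CPM and marginal markers to 3611 in basal nuclei, above the 1682 of the basal markers. The part of mitochondrial shares and of these markers in the members' shares was not tested. Nuclei without a type, which had median mitochondrial shares of up to 55.5% per large cluster, held 3.89%.

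The size of the gap between nuclei and cells moved with how near-identical genes were counted. Nuclei were counted against 48816 genes, which include many pseudogenes. By the last 300 bases of the transcripts, 62 members had at least 1 near-identical gene in the list for nuclei, 480 copies in all of which 461 are pseudogenes and 33 are also in the list for cells. These copies held 246030 UMIs in nuclei, 46.7% of the members' and copies' total, against 55696 or 4.63% in cells, and in 34 members a copy had more UMIs in nuclei than the member itself. With the copies added, the cells' share was 6.15, 5.50, 5.74 and 8.05 times that of nuclei in the 4 types. Over the 16 members with at least 100 UMIs and no listed copy, it was 8.82, 7.68, 8.34 and 12.3 times, and all 16 were at least 2-fold lower in nuclei in every type. These 16 include Rpl6l, a processed pseudogene for which copies were not searched.

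Rps27, Rpl24 and Rps29 are shown beside the copy with the most UMIs in nuclei, because a read from the end of the transcript can match both. The lines give the last 60 coding bases up to the stop codon and the matching bases of the copy, 5′ to 3′ on the strand of the gene, from GENCODE vM21 transcripts on mm10, with mismatched bases in capitals. Rps27 lies at chr3:90212522-90213651 on the minus strand and Rps27rt at chr9:114982366-114982739 on the minus strand. Rpl24 lies at chr16:55966275-55971435 on the plus strand and its pseudogene Gm12254 at chr11:58508791-58509261 on the minus strand. Rps29 lies at chr12:69157722-69159186 on the minus strand and its pseudogene Gm14303 at chr2:172509521-172509691 on the minus strand.
Rps27: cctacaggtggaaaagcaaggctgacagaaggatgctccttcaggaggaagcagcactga
Rps27rt: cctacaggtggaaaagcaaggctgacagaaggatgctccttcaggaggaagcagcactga
Rpl24: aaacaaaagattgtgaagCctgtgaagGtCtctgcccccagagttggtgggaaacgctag
Gm12254: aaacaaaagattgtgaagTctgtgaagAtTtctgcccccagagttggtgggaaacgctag
Rps29: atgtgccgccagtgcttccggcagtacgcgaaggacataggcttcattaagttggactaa
Gm14303: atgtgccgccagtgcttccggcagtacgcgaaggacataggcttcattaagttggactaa
Rps27 and Rps27rt, an intronless gene, had 0 mismatches in this stretch, as had Rps29 and Gm14303, while Rpl24 and Gm12254 had 3. Rps27 had 31971 UMIs in cells but 69 in nuclei, where Rps27rt had 18987, and both genes are in both lists, with 7139 UMIs of Rps27rt in cells. Rpl24 had 12473 UMIs in cells and 4 in nuclei, where Gm12254, not listed for cells, had 6427. Rps29 had 15014 UMIs in nuclei and Gm14303 had 16774. How reads that match both were assigned was not tested, and the levels of these members in nuclei are uncertain.

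Relative to the other members, genes spread far more in nuclei than in cells. This was taken over all kept barcodes, with or without a type, and their mix differed between cells and nuclei. Of the members' 280434 UMIs in nuclei, 139228 lay in nuclei without a type and 47994 in erythroid nuclei. In cells, barcodes without a type held 59314, 213661 and 234790 of the members' UMIs in captures 1, 2 and 3. The part of this mix in the ratios was not tested. The ratio of a member's share of the members' UMIs in nuclei to that in cells had a median of 1.21 for 16 members without a listed copy, 1.49 for 22 members with 1 to 3 copies and 0.283 for 40 members with 4 or more. Across 78 members, the number of copies and this ratio had a Spearman correlation of -0.398, and the shares in cells and in nuclei had 0.200, as descriptions over genes that share libraries. The lowest ratios were those of Rpl13, with 0 UMIs in nuclei against 19236 in cells, Rpl24 at 0.00131, Rps27 at 0.00883, Rps6 at 0.0104 and Rps7 at 0.0107. The copies listed for Rpl13 had 91 UMIs in nuclei. Rpl11, known to bind Mdm2, and Rpl12 had no listed copy but were also low in nuclei, with 121 UMIs against 12018 in cells and 74 against 5683.

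The highest ratios were found for Rpl4 with 3.42, Rps9 with 3.22, Rps3 with 2.87, Rps4x with 2.83 and Rps27l with 2.78. They are relative to the other members, and all tested members were at least 2-fold lower in nuclei in each SV type. Copies, which are outside these ratios, held 46.7% of the members' and copies' UMIs in nuclei against 4.63% in cells. Their part in the ratios was not tested. Rpl4 and Rps3 had no listed copy, and had 5439 and 8207 UMIs in nuclei against 6498 and 11691 in cells. Rpl41 alone held 14.2% of the members' UMIs in all kept nuclei, 39910 UMIs. Low-Malat1 nuclei held 3.60% of their non-mitochondrial UMIs in members, against 1.50% in high-Malat1 nuclei, and 63 of 78 members were higher in the low-Malat1 nuclei. No such count was made over all genes.

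**Figure D5:**
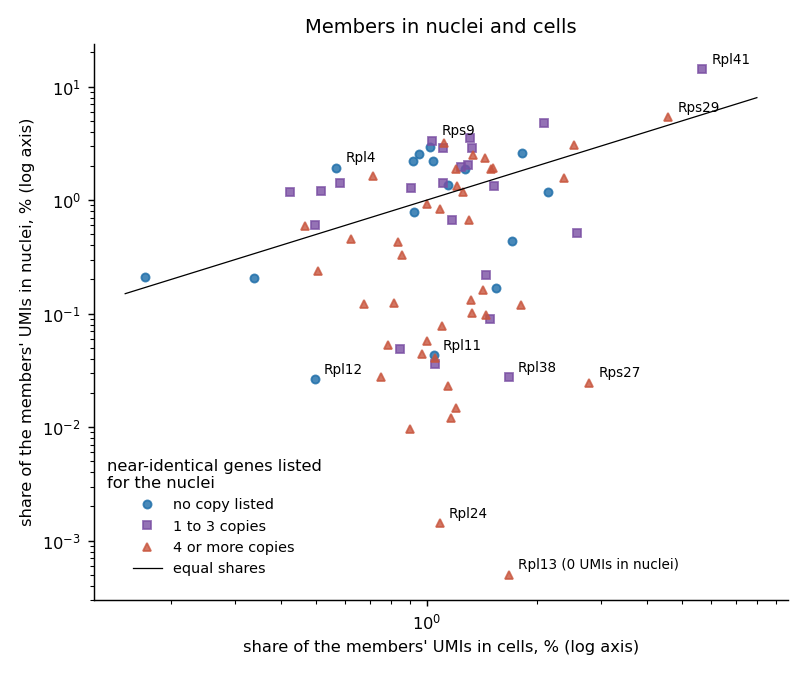
Share of the members' UMIs held by each of 78 members in all kept cells (x axis, %, log scale) and in all kept nuclei (y axis, %, log scale), by the number of near-identical genes listed for nuclei. The line marks equal shares, and Rpl13, with 0 UMIs in nuclei, is drawn at the lower edge. Of the members with 4 or more copies, 17 of 40 lie below 0.1 of their share in cells, as do Rpl11 and Rpl12, which have none.

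Erythroid nuclei held 1.87% (1.85% to 1.88%) in members. They split into a cluster of 345 nuclei with 0.320% and another of 124 nuclei with 5.43%. Erythroid nuclei were above each SV type of nuclei for 51 of 78 members and below each for 15, and B cell nuclei were above for 66 and below for 4, Rpl5, Rpl12, Rpl23a and Rps10. For these counts too, no share over all genes was taken. Fibrocyte, neutrophil and Reissner's membrane nuclei held 1.72%, 1.62% and 0.837%.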

How the data were processed

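UMI counts per gene and barcode were deposited by the authors for cells (3 captures) and nuclei (1 capture). The submitters' processing notes name Cell Ranger 2.0.0 and the mm10 build, and reads were not re-aligned here. The genes counted differ between cells and nuclei. The files hold no cell type labels. The members, the marker lists and the other gene lists were chosen with earlier results of these data known.

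Barcodes under 200 genes were dropped (14, 29 and 99 in the captures of cells and 356 in nuclei), and Scrublet (scanpy 1.11.5) scores removed 1, 14, 18 and 916 barcodes as doublets, at 0.8% per 1000 barcodes. Cells and nuclei were clustered separately in Seurat 5.3.0 on 2000 variable genes at resolution 0.8, with ribosomal protein genes and their pseudogenes excluded, and clusters were named from 102 markers of 15 classes. Clusters under 30 barcodes were left without a type, as were clusters of cells, other than erythroid, in which over 50% of barcodes had under 0.5% Malat1, a rule set after the clusters were seen. Types are therefore rebuilt and may differ from those of the study.

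Shares are UMIs of the members over all UMIs of genes whose symbols do not start with mt-. Intervals are exact binomial at 95% and cover counting error only. Counts were summed per capture and type, with at least 5 barcodes per sum, and tested with edgeR 4.0.16 in R 4.3.3 (TMM, filterByExpr, quasi-likelihood test, capture as a block, adjusted p under 0.05), fitted on all genes. The test was two-sided. Sums of 1 capture come from 1 suspension, and the deviations of sums of the same capture correlated in all 18 pairs (r from 0.0358 to 0.204 over 5926 genes). Captures are separate suspensions of pooled mice. With capture as a block, the p-values measure how differences between groups vary across suspensions, and not the spread between mice. DESeq2 1.42.0 was an alternative. In simulated counts, 86.4% to 100% of 4-fold changes and 46.2% to 94.7% of 2-fold changes were recovered over the 6 comparisons. Nuclei were compared with cells by a 2-fold limit without a test.

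Near-identical copies were genes with at least 95% identity over at least 90 of the last 300 transcript bases. The search started from protein-coding transcripts of the members, so Rpl6l was not searched. Named in the text are up to 5 members per direction and comparison with the largest change past the test, the 5 with the most UMIs, the 5 highest and 5 lowest ratios between nuclei and cells, the paralogues and the acidic stalk, except some genes that are not reported here. Genes named beside counts of 5 or fewer, and Rps28, Rpl11 and Rpl12 where singled out, were chosen after their values were seen. Of the alternatives, 37 were listed at the outset and 10 were chosen after seeing the data.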

Additional observations from a re-analysis of the deposited data

Results flagged for a closer look

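The 480 copies of members that lie outside the symbol rule held 246030 UMIs in nuclei, and Rps4l, a gene of the list for nuclei alone, held 51. Both are above the limit that a count of 0 allows. By number, 461 of the copies are pseudogenes, but some copies with many UMIs are not. Rps27rt with 18987 and Wdr89 with 10285 are annotated as protein-coding, while Gm14303 with 16774 is a pseudogene.

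Some clusters without a name held larger shares of the members than the SV types. Those given here were picked for the highest medians over barcodes. Others were lower, such as a cluster of 137 cells with a median of 8.30%, against 13.1% in spindle/root cells. A cluster of 41 cells that carried both fibrocyte and basal markers had a median share over its barcodes of 28.8%. A cluster of 42 cells with neutrophil and macrophage markers had a median of 18.5%, and a cluster of 93 nuclei with macrophage and T/NK cell markers had a median of 8.53%. These clusters entered no comparison of types, but they were kept among the low-Malat1 and high-Malat1 barcodes.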

How the results depend on the processing

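The share of members in non-mitochondrial UMIs depended on what was counted. With all UMIs below the line it was 5.48%, 4.49%, 8.46% and 11.2% in marginal, intermediate, basal and spindle/root cells, 0.633%, 0.655%, 0.940% and 0.850% in their nuclei, and 1.82% and 6.39% in erythroid and B cell nuclei. Without Malat1 it was 7.51% in intermediate cells, 0.796%, 0.973%, 1.47% and 1.09% in the nuclei, 6.99% in B cell nuclei, and 0.103, 0.130 and 0.122 of the share in cells for marginal, intermediate and basal nuclei. With copies added, chosen after seeing the data, it was 7.93% and 7.25% in marginal and intermediate cells, 1.29%, 1.32%, 2.09% and 1.78% in nuclei, 3.38% and 13.3% in erythroid and B cell nuclei, and the nuclei held 0.163, 0.182, 0.174 and 0.124 of the cells' share. With the genes named -ps alone added, it was 7.03% in intermediate cells, 0.974%, 1.04%, 1.64% and 1.41% in nuclei, 2.79% and 10.5% in erythroid and B cell nuclei, and 0.130, 0.151, 0.145 and 0.105 of the cells' share. With ribosomal proteins outside the symbol rule, it was 7.84% and 7.18% in marginal and intermediate cells, 0.716%, 0.744%, 1.18% and 0.994% in nuclei and 1.97% and 7.07% in erythroid and B cell nuclei. Over genes in both lists, marginal, intermediate and basal nuclei held 0.697%, 0.727% and 1.16%, and erythroid and B cell nuclei 1.91% and 7.49%. Without haemoglobin, erythroid cells held 21.0% and basal, erythroid and B cell nuclei 1.15%, 7.81% and 6.98%.

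As a median over barcodes, intermediate and erythroid cells held 6.61% and 0.879%, the 4 types of nuclei 0.578%, 0.483%, 0.725% and 0.643%, and erythroid and B cell nuclei 0.335% and 6.42%. Without the removal of doublets, marginal, intermediate and basal nuclei held 0.777%, 0.795% and 1.23%, and erythroid and B cell nuclei 1.72% and 6.05%. With at least 500 genes per barcode, erythroid cells held 10.8%, and basal and erythroid nuclei 1.17% and 4.49%. With 20 principal components, basal and spindle/root nuclei held 1.18% and 1.00%, at resolution 0.4 erythroid nuclei held 1.00%, without low-Malat1 barcodes basal nuclei held 1.11%, and with ribosomal genes among the variable genes intermediate cells held 7.00%. The ratio of low-Malat1 to high-Malat1 cells was 0.975 over all UMIs, 1.41 without Malat1, 1.39 in intermediate clusters and 1.90 between the low-Malat1 cluster and marginal cells.

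When the low-Malat1 cluster was counted as marginal, marginal cells held 10.8%, 1 member fell in marginal and 18 rose in basal cells, and the log2 fold change of Rps24 turned to 0.081 in marginal cells. Scaled to the members, 2 fell in marginal and 8 in intermediate cells, and 3 rose in basal, 18 in spindle/root, 15 in erythroid and 5 in low-Malat1 cells. Without TMM, 4 rose in erythroid and 1 in low-Malat1 cells. With the non-mitochondrial library size, 1 rose in erythroid cells, where Rpl6l turned to a log2 fold change of -0.080, and within intermediate clusters 0 rose in low-Malat1 cells by edgeR, with 4 at an unadjusted p under 0.05. The cause was not tested, and no share over all genes stands beside the counts of this paragraph. Leaving out each capture gave 26 to 59 members higher in basal and 42 to 78 in erythroid cells, with the lowest counts without capture 3. Without the capture block, 68 members fell in marginal and 72 in intermediate cells, and 42 rose in basal, 74 in spindle/root, 78 in erythroid and 77 in low-Malat1 cells, so the block moved no count by over 1.5 times. No paired analysis was possible because nuclei and cells never came from the same suspension. The 262 other values that answer a comparison stayed near the main value. Among these, shares and their ratios moved by less than the replicate spread or interval. Counts of members stayed within 1.5 times the main count. For single genes, 521 values kept their sign and still passed, while 22 no longer passed. Spindle/root cells, with 45 barcodes, and erythroid cells, with 2 captures, give the least precise values.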
